A study of Mus musculus with 30 samples.

Results

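The regions described here are the histone acetylation peaks that mouse neural stem and progenitor cells showed with crotonate and not without it. A peak of the acetyl-lysine (Kac) list from crotonate-treated cells was counted as gained when no base of it lay under a peak of the Kac list from control cells. By this rule 7357 of the 21616 crotonate Kac peaks were gained (34.0%), and the other 14259 were kept. In the opposite direction 9146 of the 23427 control Kac peaks had no crotonate peak over them (39.0%) and are called lost. The 8 peak lists of the series hold 128515 peaks in all. The members were selected on the 2 Kac lists themselves, so the count of gained peaks and the absence of a control Kac peak under them describe the rule and were not tested.

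The cells, NSPCs, were grown from the forebrain of C57BL/6 embryos at E13.5 and kept to passages P1-P3 with epidermal and fibroblast growth factors. They received for 24 h the solvent DMSO (control), 10 mM crotonate, a short-chain fatty acid with a double bond, or 1 µM of MS-275, which blocks deacetylases of class I. The DMSO group is the control of both treatments. RNA was sequenced from 4 replicate libraries of each of the 3 groups. The labels do not say whether replicates are separate cultures, so p-values measure the spread between these libraries, which may be technical. Chromatin immunoprecipitation (ChIP) used antibodies against acetylated (Kac) or crotonylated (Kcr) lysine on any histone, with 1 library for each antibody and treatment. From untreated C57BL/6 forebrain at E13.5 there was 1 ChIP library each of H3K9ac and H3K9cr, histone H3 acetylated or crotonylated at lysine 9, and 1 RNA library. Explants of ICR forebrain at E13.5 gave 3 control and 3 crotonate RNA libraries, and the labels give no dose or time for them. Each NSPC peak list came from 1 library and holds positions alone, without heights or read numbers. Differences between peak lists therefore have no replicate check and no test, and a place just under the calling threshold in the control counts as gained. Positions are on GRCm38 and counted from 1.

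Histone acetylation is written by acetyltransferases from acetyl-CoA and removed by deacetylases. It loosens the contact of histones with DNA, is read by bromodomain proteins and marks active promoters and enhancers. Crotonylation is a related mark made by some of the same enzymes from crotonyl-CoA, which cells can form from crotonate, and it is read preferentially by YEATS and double PHD finger domains. Class I deacetylases can remove both marks.

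At promoters the gained peaks can be shown with their sequence. RefSeq promoters of GRCm38.p6 were used, as the 250 bases before each start, and 36 of the 47 genes named here had an entry. The following 6 are the first of the named genes, in the order of the naming rule, whose gained Kac peak covers bases of that stretch and that have no control Kac peak at the gene. They show where in these 6 stretches the new peaks sat. Each is written 5′ to 3′ on the strand of the gene and ends at the base before the start, and capitals mark the bases under the gained peak.
Rtn4rl2, minus strand, chr2:84886693-84886942: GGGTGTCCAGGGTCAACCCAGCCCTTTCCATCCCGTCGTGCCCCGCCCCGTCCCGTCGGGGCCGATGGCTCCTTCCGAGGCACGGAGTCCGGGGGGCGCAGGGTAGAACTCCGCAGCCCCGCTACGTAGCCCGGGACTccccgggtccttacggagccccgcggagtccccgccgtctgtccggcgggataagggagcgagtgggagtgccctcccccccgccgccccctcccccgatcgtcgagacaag
Chek1, minus strand, chr9:36726659-36726908: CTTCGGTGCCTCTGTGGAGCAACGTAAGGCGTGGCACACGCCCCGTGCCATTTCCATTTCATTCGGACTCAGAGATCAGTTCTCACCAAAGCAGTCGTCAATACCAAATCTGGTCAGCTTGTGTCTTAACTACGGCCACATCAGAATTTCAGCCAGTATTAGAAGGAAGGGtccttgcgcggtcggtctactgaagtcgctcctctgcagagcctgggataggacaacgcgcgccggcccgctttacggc
Gle1, plus strand, chr2:29935159-29935408: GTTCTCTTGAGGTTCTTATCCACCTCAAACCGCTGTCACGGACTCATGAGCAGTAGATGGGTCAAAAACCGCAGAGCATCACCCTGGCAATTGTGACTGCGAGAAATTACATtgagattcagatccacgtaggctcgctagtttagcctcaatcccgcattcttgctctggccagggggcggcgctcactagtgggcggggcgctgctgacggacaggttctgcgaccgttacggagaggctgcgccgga
Cenpl, plus strand, chr1:161070517-161070766: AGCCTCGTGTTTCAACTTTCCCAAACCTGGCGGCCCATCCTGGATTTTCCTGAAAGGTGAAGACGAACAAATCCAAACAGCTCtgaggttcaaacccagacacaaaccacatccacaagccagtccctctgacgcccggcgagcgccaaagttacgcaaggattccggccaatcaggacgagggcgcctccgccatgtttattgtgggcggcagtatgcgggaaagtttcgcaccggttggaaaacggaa
Klhl21, plus strand, chr4:152008641-152008890: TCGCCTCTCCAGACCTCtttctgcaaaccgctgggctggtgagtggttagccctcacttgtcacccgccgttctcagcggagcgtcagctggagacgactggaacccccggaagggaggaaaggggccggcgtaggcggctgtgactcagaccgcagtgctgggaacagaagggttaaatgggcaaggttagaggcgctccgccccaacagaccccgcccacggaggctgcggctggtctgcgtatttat
Hadh, minus strand, chr3:131272102-131272351: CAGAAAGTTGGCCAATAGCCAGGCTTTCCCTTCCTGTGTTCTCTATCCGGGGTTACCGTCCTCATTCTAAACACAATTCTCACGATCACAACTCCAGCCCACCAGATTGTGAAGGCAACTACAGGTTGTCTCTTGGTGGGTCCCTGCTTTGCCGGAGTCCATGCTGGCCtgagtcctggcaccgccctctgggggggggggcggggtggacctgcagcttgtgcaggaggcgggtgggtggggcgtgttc
In all 6 the peak covered the outer side of the stretch and not the bases next to the start. A second gained peak of Hadh lay after its start. The start used for Rtn4rl2 lies inside the gene. Between 17 bases (Klhl21) and 171 bases (Chek1) of the 250 lay under the peak. The stretch of Rtn4rl2 had the highest G+C content of the 6 at 73.6% and that of Cenpl the lowest at 54.8%. RNA of Rtn4rl2 and Hadh was higher with crotonate and that of the other 4 genes lower, as described below.

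Over all RefSeq promoters, those with a gained peak were richer in CpG steps than the median promoter. Of 32817 distinct stretches, 1171 were covered in part by a gained Kac peak and by no control Kac peak. Their median CpG ratio, the CG steps observed over those expected from the C and G content, was 0.693. It was 0.824 at the 3645 promoters with a control and a crotonate Kac peak, 0.807 at the 1844 with a control peak only, 0.281 at the 26157 without a Kac peak and 0.373 over all. A ratio of at least 0.6 was reached by 63.9% of the promoters with a gained peak, against 81.8%, 79.2% and 22.7% in the other 3 classes and 33.9% of all. The gained class thus lay between promoters without Kac and those acetylated in the control.

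The motifs searched were short and were looked for on both strands of the same stretches, and the motifs may overlap each other. The GC box GGGCGG, which SP1 and KLF factors bind, was in 63.2% of promoters with a gained peak, 62.9% of those with a peak in both lists, 59.4% of those with a control peak only and 32.7% of all. The ETS site CCGGAAGT was in 2.82% of promoters with a gained peak, near the 2.88% of all, and in 7.49% and 8.95% of promoters with a kept or a lost control peak. The cAMP response element TGACGTCA was in 1.62% (all, 1.55%), against 3.13% and 2.93%. The TATA box TATAAA was in 4.70% (all, 12.4%), the AP-1 site TGANTCA in 3.84% (all, 6.75%), the CCAAT box CCAAT in 29.7% (all, 33.8%) and the E-box CANNTG in 59.9% (all, 66.2%). In the printed stretches the GC box had 2 matches in Rtn4rl2, Gle1, Klhl21 and Hadh each, 1 in Cenpl and none in Chek1. Only 1 of these, in Rtn4rl2, lay under the gained peak. These matches describe letters in the window and are not binding sites.

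Gained Kac peaks were narrow. Their median width was 249 bp (lowest 192, highest 1284), against 334 bp for kept and 229 bp for lost peaks. Together they covered 2120978 bp, of 7782258 bp under all crotonate Kac peaks. The widest gained peak, 1284 bp at chr11:64435282-64436565, covered the start of Hs3st3a1, which encodes an enzyme that sulfates heparan sulfate. Next, besides a peak of 1051 bp between genes on chromosome 1, were 1116 bp at Pcdh7, a protocadherin of the cell surface, 1111 bp in Lor, which encodes the skin protein loricrin, 1064 bp over the start of Fhdc1 and 1048 bp over the start of Matk, a kinase that inhibits Src family kinases. Of the 10 widest, 9 lay under a Kcr crotonate peak and 3 under a Kcr control peak. The exception was a peak of 1043 bp over the start of Cntn6, a neuronal adhesion protein, which lay under no peak of the other 6 lists.

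Some gained peaks adjoined old ones and others were far from any. The distance to the nearest control Kac peak had a median of 7441 bp. It was 500 bp or less for 2355 gained peaks (32.0%), 1 kb or less for 2934 (39.9%) and over 50 kb for 1900 (25.8%). At the border set by the rule, 45 gained peaks lay within 10 bp of a control peak and 52 kept peaks overlapped one by 10 bp or less. A peak of 255 bp at chr14:46821365-46821619 in Gmfb touched a control peak without overlap, and a peak of 250 bp beside Myb and one of 396 bp in Znrf3 lay 1 bp from one. Just inside the other side, kept peaks in Syt7 (192 bp), in Arhgap26 (332 bp) and 52952 bp from the start of Cdca7 (492 bp) shared 1 bp with a control peak.

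**Figure D1:**
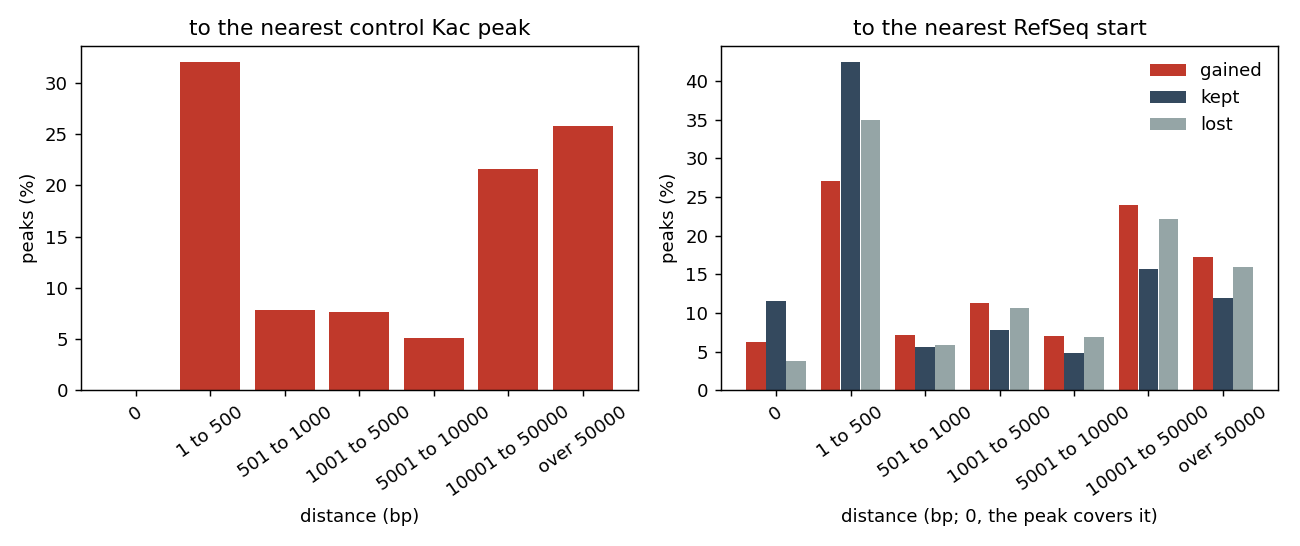
Distance in bp from gained Kac peaks to the nearest control Kac peak (left, n = 7357) and from gained, kept and lost peaks to the nearest RefSeq start (right, n = 7117, 13782 and 8859 off chromosome 18), as percent of peaks in each bin. The left panel has its highest bars at 1 to 500 bp (32.0%) and over 50 kb (25.8%), and in the right panel 27.1% of gained against 42.4% of kept peaks lie 1 to 500 bp from a start.

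Gained peaks lay at gene starts less often than kept ones. Within 1 kb of a RefSeq start were 2882 of 7117 gained peaks (40.5%), 59.7% of kept and 44.5% of lost peaks, with chromosome 18 left out because the promoter table used has no entries for it. Median distances to a start were 3870 bp, 352 bp and 2483 bp. Inside a gene lay 67.6% of gained, 78.0% of kept and 74.7% of lost peaks. Among the 2934 gained peaks within 1 kb of a control Kac peak 48.4% were at a start, and among the 4423 farther ones 35.3%.

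The gained peaks coincided with crotonylation seen after crotonate more than with crotonylation seen before it. Under a Kcr peak of crotonate-treated cells lay 3206 gained peaks (43.6%), and under a Kcr peak of control cells 1250 (17.0%). The Kcr crotonate list is also the longer one, with 23301 peaks against 17669. Kept peaks lay under both lists alike, at 75.4% and 74.7%, and so did lost peaks, at 36.0% and 36.6%. A Kcr crotonate peak without a Kcr control peak covered 33.5% of gained, 14.2% of kept and 17.1% of lost peaks. The reverse, a Kcr control peak alone, covered 6.90%, 13.6% and 17.7%. Seen from the other list, 2432 of the 11204 Kcr crotonate peaks without Kcr control (21.7%) overlapped a gained Kac peak, and these held 32.7% of the gained Kac peaks.

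Gained peaks shared less with MS-275. A Kac MS-275 peak covered 948 gained peaks (12.9%) and a Kcr MS-275 peak 679 (9.23%), against 27.1% and 20.3% of kept and 9.27% and 6.57% of lost peaks. These lists are shorter, with 7555 and 5845 peaks. Of the 2788 Kac peaks that MS-275 cells had and control cells lacked, 877 (31.5%) overlapped a gained peak, and these held 12.1% of the gained peaks. Both sets were defined against the same control list. Under both a Kac MS-275 and a Kcr crotonate peak lay 567 gained peaks, the widest of them at Hs3st3a1, Pcdh7, Fhdc1, chr1:186833609-186834659 between genes, and Matk.

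In untreated forebrain, part of the gained regions were already acetylated. An H3K9ac peak of forebrain covered 3513 gained peaks (47.8%) and an H3K9cr peak 1893 (25.7%), against 78.3% and 63.6% of kept and 55.7% and 42.0% of lost peaks. Forebrain H3K9ac peaks with a gained and no kept peak under them had a median fold enrichment, as the authors' peak caller gave it, of 8.10 (n = 2022). Those with a kept peak had 20.3 (n = 8067), and those with neither 7.03 (n = 6521). At starts 72.8% of gained peaks lay under forebrain H3K9ac, 55.1% under Kcr crotonate and 22.3% under Kcr control. More than 1 kb from a start the shares were 30.9%, 35.9% and 13.1%. For kept peaks they were 94.1%, 81.4% and 79.7% at starts and 55.0%, 66.9% and 67.7% farther away. None of the other 6 lists covered 2123 gained peaks (28.9%), against 3.93% of kept and 23.7% of lost peaks.

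**Figure D2:**
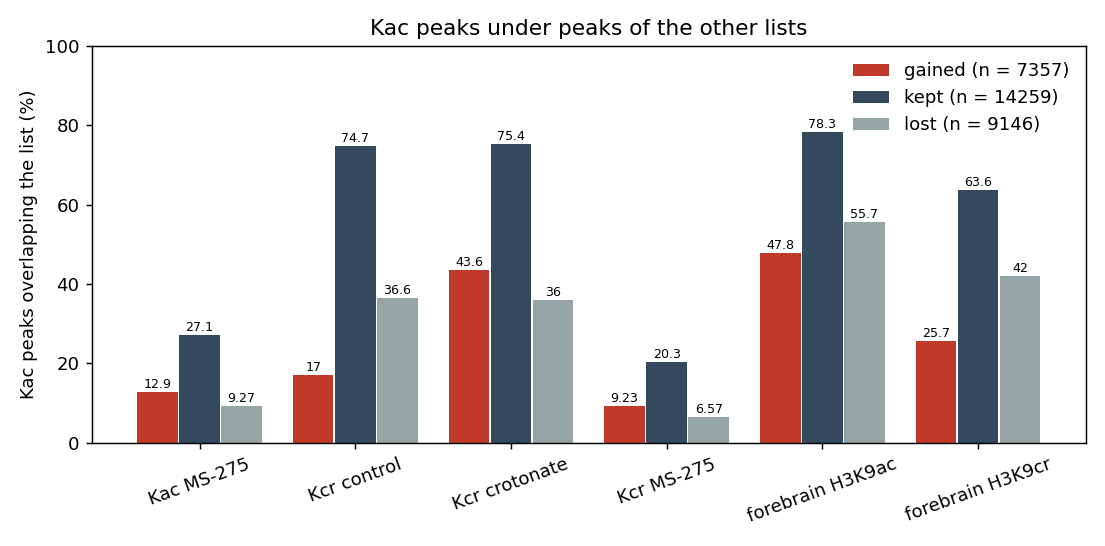
Percent of gained, kept and lost Kac peaks that overlap by at least 1 bp a peak of each of the other 6 lists, 1 library a list. Gained peaks lie under Kcr crotonate (43.6%) more often than under Kcr control (17.0%), whereas kept and lost peaks lie under both to nearly the same share.

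Wider gained peaks were crotonylated more often. Of the 2384 gained peaks under 220 bp, 32.0% lay under Kcr crotonate and 14.1% under Kcr control. Of the 607 of 450 bp or more the shares were 78.1% and 23.9%. Kac MS-275 covered 8.43% of the narrow and 29.0% of the wide ones. Wider peaks have more bases with which to meet a peak of another list, and kept peaks also rose with width. Within each width class gained peaks met Kcr crotonate more often than Kcr control, and kept peaks met both alike.

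**Figure D3:**
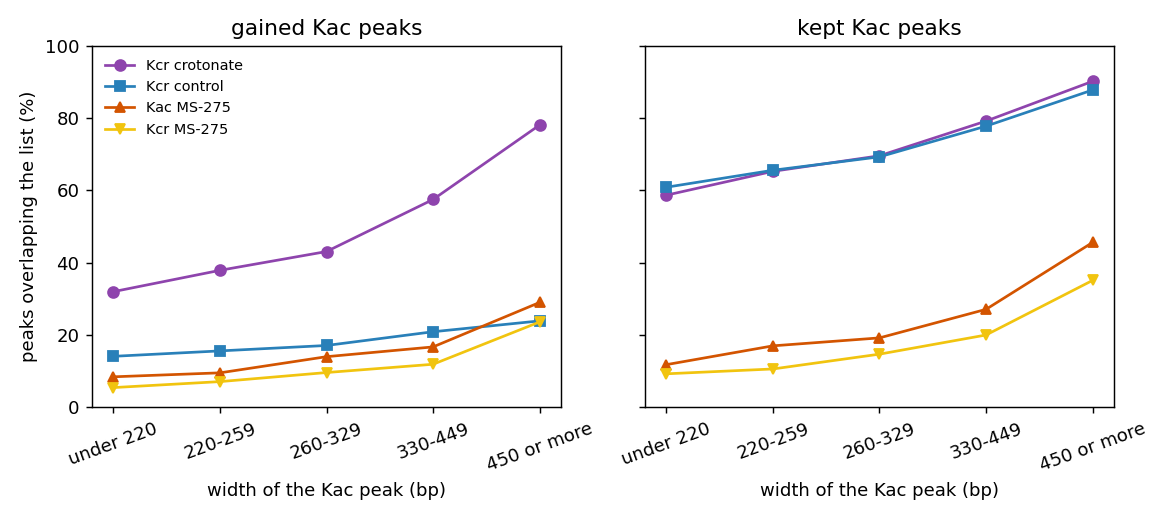
Percent of gained (left) and kept (right) Kac peaks under Kcr crotonate, Kcr control, Kac MS-275 and Kcr MS-275 peaks, by the width of the Kac peak in bp. For gained peaks the Kcr crotonate line runs from 32.0% to 78.1% and the Kcr control line from 14.1% to 23.9%, while for kept peaks both lines run together.

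RNA was measured in libraries of its own, which the rule did not use, and the labels do not say whether the ChIP samples came from the same cultures. Values are TPM, an abundance per length and library, in 4 libraries a group, and genes were tested with limma on log2(TPM + 1) with a threshold of 0.05 for the adjusted p. In bulk RNA, fewer cells of a type and less RNA per cell cannot be told apart. All 20 genes of a radial glia and neural stem list were at 1 TPM or more in all 12 NSPC libraries, with Sox2 between 247 and 295 TPM and Nes, which encodes nestin, between 225 and 396. Column sums were 998182 to 999495 TPM, the read depth is unknown, and libraries of a group correlated at 0.981 or more. The 10 neuron markers summed to 23.5 to 30.6 TPM in control, 63.0 to 67.4 in crotonate and 78.0 to 91.9 in MS-275 libraries. Of the 9 tested ones 9 were higher with crotonate, beside 33.7% of all tested genes with a position. After quantile normalization 5 were higher, beside 22.1% of all. The 7 astrocyte markers summed to 149 to 201, 179 to 221 and 226 to 281 TPM, and the 8 oligodendrocyte lineage markers, mostly Olig1 and Olig2, to 1702 to 1904, 1863 to 2118 and 2872 to 3152. The 7 endothelial markers summed to 1.66 to 2.17, 2.93 to 4.17 and 4.94 to 6.77 TPM and the 7 microglia markers to 0.891 to 2.12, 1.15 to 3.28 and 1.27 to 2.68, so both stayed low. No marker was at 0 in all 12 libraries. The part of such cells in the results on genes was not tested.

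Genes with a gained Kac peak and no control Kac peak, inside or within 1 kb, were mostly higher with crotonate. The RNA table holds 1796 of them, of which 1164 passed the filter of at least 1 TPM in at least 4 of 12 libraries and were tested, and 632 were not. The 1164 are 8.38% of the 13887 tested genes with a position. Of them, 747 were higher (64.2%) and 56 lower (4.81%), beside 33.7% and 16.7% of all 13887. Higher by 2-fold or more were 282 (24.2%), beside 6.46% of all. The median log2 fold change was 0.55, beside 0.09. Among called genes the share of higher ones was 93.0% in the gained class and 66.8% in all. It was 86.1% and 45.1% after median-of-ratios scaling, which moved the median of all genes from 0.09 to -0.03, and 79.7% and 47.1% after quantile normalization, with the same median of all genes. Under these scalings 57.9% and 42.5% of the gained class were higher, beside 24.6% and 22.1% of all.

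The other classes lay nearer to the background. Of 2518 tested genes with gained and control Kac peaks 37.8% were higher, of 6067 with control peaks and none gained 26%, of 1553 where control peaks were only lost 24.0%, and of 2585 without a Kac peak in either list 39.8%. Genes with gained peaks alone were weakly expressed in the control, with a median of 3.82 TPM against 19.2 for all. Of the 1164, 157 reached 1 TPM in no control library, so they passed the filter only with treated libraries. Among the 817 with at least 1 TPM in all 4 controls 60.3% were higher, beside 31.1% of all genes with this property. With a mean under 1 TPM over the 12 libraries 54.7% were higher (background 34.1%), from 1 to 5 TPM 68.5% (45.6%), from 5 to 20 TPM 68.7% (40.1%) and from 20 TPM 52.9% (25.6%).

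**Figure D4:**
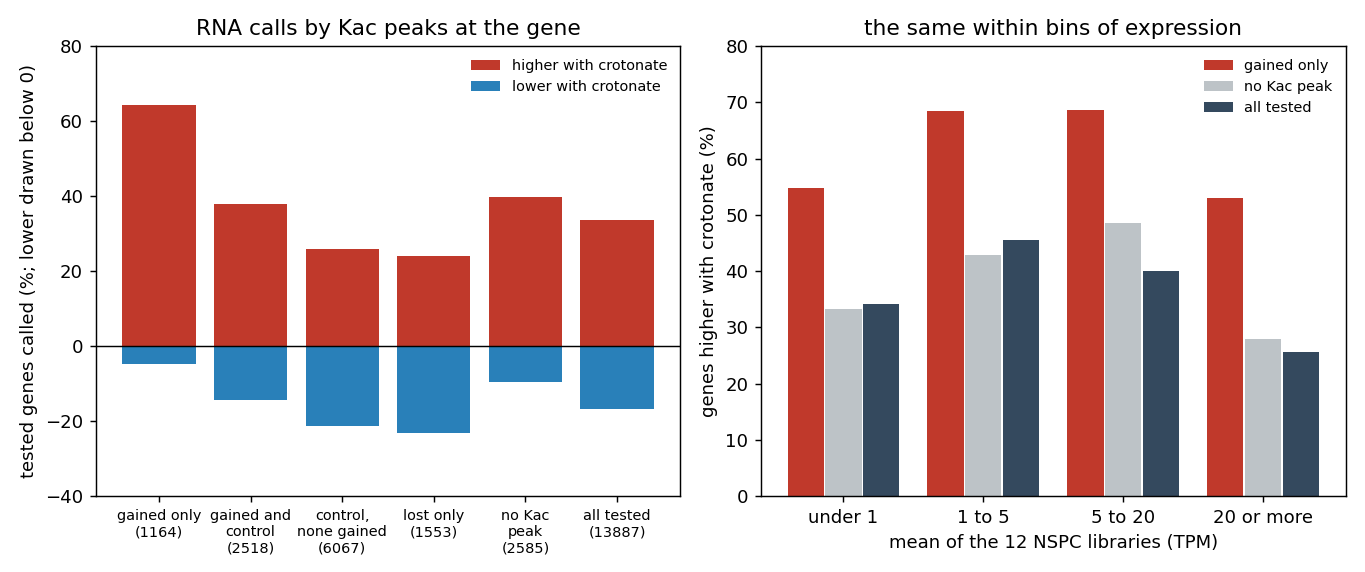
Left, percent of tested genes called higher or lower with crotonate by limma, by the Kac peaks inside or within 1 kb of the gene, with the number of genes in brackets; lower calls are drawn below 0. Right, percent higher within bins of the mean of 12 libraries. Gained-only genes have 64.2% higher and 4.81% lower calls, and in each bin their bar is above that of all tested genes.

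The share of higher genes varied with the peaks themselves. It was 68.8% for the 756 genes with a gained peak under a Kcr crotonate peak and 55.6% for the 408 without. It was 71.8% for the 238 genes with a Kac MS-275 peak and 62.2% for the other 926. With 1 gained peak it was 61.9% (n = 874), with 2 it was 68.4% (n = 237) and with 3 or more 83.0% (n = 53). Median gene lengths in these groups were 23.2, 27.2 and 96.8 kb, and the part of gene length was not tested. With MS-275 65.6%, 75.9% and 64.2% of the same groups were higher than in the control. By distance to the start instead of the whole gene, 590 of 934 genes with a gained and no control peak within 1 kb of a start were higher (63.2%), beside 33.4% of all genes with a start. For 143 of the 1164 genes every gained peak also lay at another tested gene, so the peak cannot be assigned to 1 of them.

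The same class was mostly higher with MS-275 too. Of the 1164 genes 787 were higher with MS-275 than in the control (67.6%) and 108 lower (9.28%), beside 38.8% and 28.8% of all. Its median log2 fold change was 0.65, against 0.08 over all genes. The 2 comparisons share the 4 control libraries. Between the treated groups, 319 were higher with MS-275 than with crotonate (27.4%) and 223 lower (19.2%), beside 20.2% and 28.7% of all.

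In the explants the class lay near the background. In the authors' deposited table, which has an adjusted p for 948 of these genes, 99 were higher with crotonate (10.4%) and 74 lower (7.81%), beside 11.5% and 10.0% of all. The median log2 fold change of the class there was 0.00. The table holds no values per library, and its direction rests on the name under which it was deposited.

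Several of the named rising genes encode membrane proteins. Rtn4rl2, which encodes a neuronal relative of the Nogo receptor (chromosome 2, 84871297 to 84888641, minus strand), had 3 gained peaks. The peak shown above lay 112 bp from a RefSeq start inside the gene. Another, at 84888920 to 84889126, lay just outside the 5′ end of the gene. RNA libraries of Rtn4rl2 had 2.37, 1.45, 2.13 and 3.48 TPM in the control, 25.4, 31.5, 27.4 and 22.7 with crotonate and 26.5, 22.2, 24.3 and 22.9 with MS-275. All treated libraries lay above all controls, and the treated groups overlapped. The log2 fold change with crotonate was 3.07 (SE 0.15, limma adjusted p = 2.5e-08). Kcnt1, a sodium-activated potassium channel with a gained peak of 245 bp inside the gene, rose from 1.87 ± 1.05 to 21.3 ± 2.63 TPM (SD, n = 4 each), and with MS-275 it was 14.0 ± 2.17. Its crotonate libraries, 18.2 to 24.2 TPM, lay above all MS-275 libraries, 11.8 to 16.0, with a limma adjusted p of 0.0588 for that difference, and of 0.0451 with libraries paired by replicate number as a block.

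Ly6h, a membrane-anchored protein of neurons with gained peaks of 425 and 669 bp, rose 10.7-fold with crotonate and 6.19-fold with MS-275, and MS-275 was lower than crotonate by a log2 difference of -0.76 (limma adjusted p = 0.00150). In the authors' deposited table for explants Ly6h was lower with crotonate (log2 fold change -0.12, adjusted p 0.00658), and untreated forebrain had 168 TPM of it. Slc7a10, a transporter of small neutral amino acids, rose from 0.864 ± 0.313 to 12.5 ± 2.06 TPM.

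Others encode proteins of the cytoskeleton, the matrix and mitochondria. Tpm2, a tropomyosin (chromosome 4, 43513726 to 43523583), had a gained peak of 557 bp at 568 bp from its start. It had 1.91, 2.21, 2.76 and 3.50 TPM in the control, 30.6, 31.5, 32.1 and 30.4 with crotonate and 37.1, 42.6, 33.8 and 35.9 with MS-275. The control stood far below both treated groups, with a log2 fold change of 3.18 (SE 0.12, limma adjusted p = 5.1e-09) for crotonate. Emilin2, a glycoprotein of the extracellular matrix, had 0.725 to 1.17 TPM in control, 9.81 to 16.5 in crotonate and 3.67 to 10.0 in MS-275 libraries, and MS-275 was lower than crotonate (limma adjusted p = 0.00507). Ucp2, an uncoupling protein of mitochondria with a gained peak 43 bp from its start, had 11, 7.72, 7.66 and 9.82 TPM in the control, 62.3, 76.8, 59.8 and 63.2 with crotonate and 126, 155, 121 and 127 with MS-275. The 3 groups did not overlap, and MS-275 was higher than crotonate by a log2 difference of 1.00 (limma adjusted p = 2.4e-05).

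The rest of the 11 rising genes named here were Lbhd2 (12.9-fold), Got1l1 (10.9-fold), Mdfi, an inhibitor of MyoD family factors (10.9-fold), and H2-T-ps of MHC class I (11.8-fold). The symbol H2-T-ps names a pseudogene, while the RefSeq annotation used lists it as protein coding. Its reads can be shared with near-identical relatives. With MS-275 Got1l1 and Mdfi were higher than with crotonate, at 25.7 ± 2.2 against 14.6 ± 2.80 TPM and 23.4 ± 5.50 against 11.8 ± 2.54 TPM. All 11 were also higher with MS-275 than in the control. For 10 of the 11 a gained peak lay under a Kcr crotonate peak, beside 756 of all 1164 tested genes with gained peaks alone. For none did a gained peak lie under a Kcr control peak, for 4 under Kac MS-275 and for 5 under forebrain H3K9ac. These lists covered 17.0%, 12.9% and 47.8% of all single gained peaks. Genes such as Rtn4rl2 and Ly6h had multiple gained peaks, so counts of genes cannot be set against these shares of peaks. The exception under Kcr crotonate was H2-T-ps.

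Falls were rarer and smaller. The 12 named falling genes had 0.583 to 0.736 of their control level, while the rising ones had 7.25-fold to 14.5-fold. Several act in cell division. Chek1, a checkpoint kinase of DNA damage, had 50.3, 55.0, 46.2 and 41.8 TPM in the control, 32.4, 30.6, 29.9 and 32.1 with crotonate and 13.8, 16.1, 14.8 and 17.7 with MS-275. The 3 groups formed 3 levels without overlap, and both the fall with crotonate (log2 fold change -0.61, SE 0.09, limma adjusted p = 1.1e-04) and the further difference with MS-275 (-0.96, limma adjusted p = 3.2e-06) passed the test. Cenpl, a protein of the centromere, and Ska1, which joins kinetochores to microtubules, had the same order, with 17.3 ± 0.650, 11.6 ± 0.987 and 6.77 ± 0.410 TPM for Cenpl and 15.1 ± 2.14, 9.77 ± 1.42 and 4.82 ± 0.806 TPM for Ska1. Klhl21, an adaptor of a ubiquitin ligase used in mitosis, fell to 0.674 of its control level. The gained peaks of Chek1 and Ska1 lay under forebrain H3K9ac and under no Kcr crotonate peak.

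Other falling genes have roles in RNA handling and metabolism. Gle1, a factor of mRNA export, fell from 40.6 ± 2.76 to 27.4 ± 0.896 TPM, and Rbm19, which acts in ribosome assembly, from 22.9 ± 5.19 to 13.3 ± 0.535 TPM. Shmt2, the mitochondrial enzyme that splits serine to glycine, had 139, 148, 135 and 151 TPM in the control, 114, 102, 104 and 102 with crotonate and 93.7, 94.3, 90.2 and 87.6 with MS-275. No libraries of these groups overlapped. Nfil3, a transcriptional repressor, and Agt, the precursor of angiotensin, fell to 0.6 and 0.619 of control.

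In 3 of the falling genes MS-275 did not follow crotonate. Gbp3, a GTPase induced by interferon and a member of a family with similar sequences, had 5.75, 5.30, 5.30 and 4.49 TPM in the control, 2.46, 3.62, 2.95 and 3.33 with crotonate and 9, 9.76, 7.31 and 9.99 with MS-275. It fell with crotonate (log2 fold change -0.61, limma adjusted p = 0.00104), rose with MS-275 (0.69, limma adjusted p = 2.2e-04), and the treated groups differed by 1.29 (limma adjusted p = 3.3e-06). Vwc2, a secreted antagonist of BMP, went from 7.73 ± 0.719 to 5.39 ± 0.561 with crotonate and 11 ± 1.82 TPM with MS-275. The rise of Vwc2 with MS-275 had an adjusted p of 0.00382, and of 0.231 after quantile normalization. Shb, an adaptor protein of receptor signalling, fell from 7.5 ± 0.912 to 5.24 ± 0.445 TPM with crotonate and had 8.05 ± 0.688 TPM with MS-275, with a log2 difference from control of 0.09 that was -0.23 after quantile normalization.

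**Figure D5:**
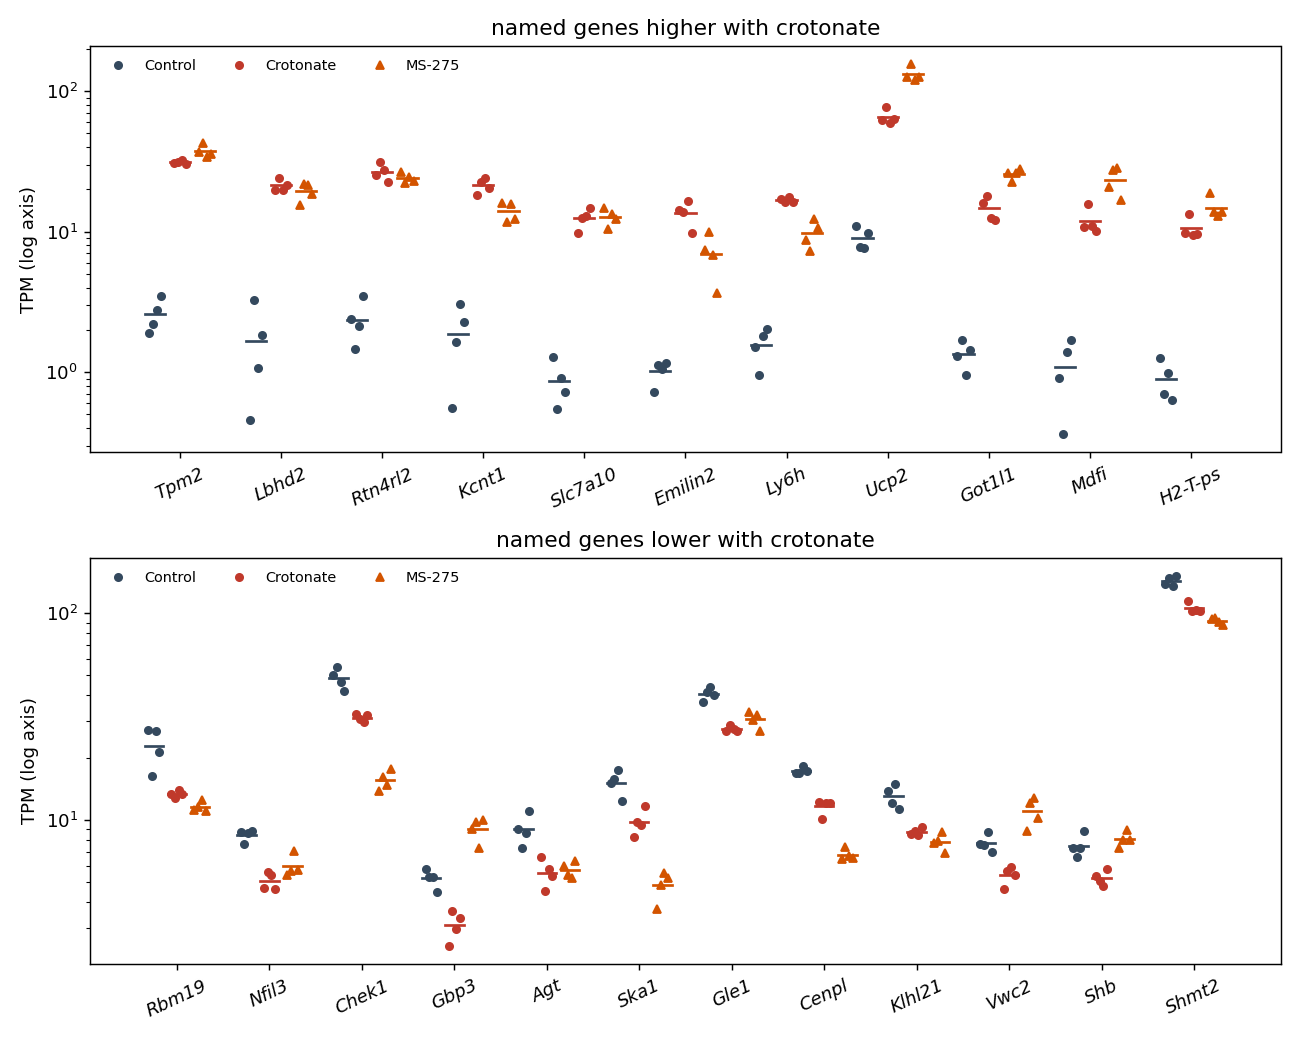
TPM on a log axis in the 4 libraries of each group for the 11 named genes that rose (top) and the 12 that fell (bottom) with crotonate, circles for control and crotonate, triangles for MS-275, and bars for the means. Crotonate libraries lie all above or all below the controls for each gene by the naming rule, and for Gbp3 and Vwc2 the MS-275 libraries lie above the controls while the crotonate libraries lie below.

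Among Wnt pathway genes Sfrp1, Sfrp2 and Dkk3, which encode secreted proteins, had gained peaks alone and rose. Of 22 genes of the Wnt list 4 had gained peaks alone, of which 3 were higher and none lower, beside 8.38% of all tested genes with gained peaks alone and 64.2% of those higher. Of the whole list 12 were higher and 2 lower, beside 33.7% and 16.7% of all, and the median log2 fold change was 0.26 (0.09 over all). Sfrp2, a secreted frizzled-related protein that binds Wnt ligands (chromosome 3, 83765750 to 83774314), had 4 gained peaks, all under Kcr crotonate, 3 under Kcr control and 1 under Kac MS-275. Its libraries had 11.1, 14.1, 12.1 and 12.3 TPM in the control, 33.4, 32.9, 31.9 and 30.1 with crotonate and between 11.5 and 13.9 in the 4 MS-275 libraries. Crotonate alone stood apart, with a log2 fold change of 1.31 (SE 0.08, limma adjusted p = 1.2e-07), while MS-275 lay within the range of the control and below crotonate by a log2 difference of -1.28 (limma adjusted p = 2.1e-07). Its close relative Sfrp1 had 1 gained peak and rose with both, from 5.64 ± 0.718 to 19.8 ± 0.889 TPM with crotonate and 17.0 ± 1.74 TPM with MS-275. The others of the list, named after their values were seen, were Dkk3, of the Dickkopf family, which rose from a mean of 4.26 to 11.2 TPM, and the transcription factor Lef1, at 1.69 and 2.60 TPM (limma adjusted p = 0.139).

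Of 19 target genes of the neuronal silencer REST 17 were higher with crotonate, beside 33.7% of all genes, with a median log2 fold change of 0.98. The 4 of them with gained peaks alone, beside 8.38% of all genes, were all higher. Snap25, part of the machinery of vesicle fusion, had 4.32, 5.85, 2.98 and 4.13 TPM in the control, 24.1, 26.8, 25.9 and 23.3 with crotonate and 31.6, 25.1, 32.7 and 25.6 with MS-275, which puts both treatments far above the control. Disp2, related to the hedgehog release protein Dispatched, had 2 gained peaks and 9.94 ± 0.762, 35.4 ± 3.40 and 57.3 ± 4.52 TPM in the 3 groups. The other REST targets, outside the naming rule, were Celsr3 (2.87 to 8.64 TPM) and Scg3 (43.5 to 60.7 TPM). In the synapse list 17 of 22 genes were higher (median log2 fold change 0.47), and 2 had gained peaks alone, near the share over all genes. Gained and control peaks lay at 9 genes of the list, of which 8 were higher. Of all 13887 tested genes 2518 had both kinds of peak, and 37.8% of these were higher. Stx1a, a syntaxin of the presynaptic membrane, had 8.37 ± 1.98 and 12.3 ± 3.80 TPM without a call (limma adjusted p = 0.0543), and without control 1 or crotonate 4 the adjusted p was 0.0196 or 0.0149. Rbfox3, which encodes the neuronal protein NeuN, rose from 1.46 ± 0.331 to 3.27 ± 0.362 TPM. In the authors' deposited table for explants Rbfox3 (log2 fold change 0.21, adjusted p 9.5e-06) and Snap25 (0.12, adjusted p 0.00657) were higher with crotonate. Both are also among the neuron markers summed above, so they are part of that sum.

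In the Notch list 2 of 17 tested genes had gained peaks alone, near the 8.38% of all genes, and both rose. Jag2, a Notch ligand, went from 2.13 ± 1.03 to 10.4 ± 1.03 TPM, and Mfng, a glycosyltransferase that modifies Notch, with 3 gained peaks under Kcr crotonate and forebrain H3K9ac, from 4.53 ± 1.07 to 10.1 ± 1.64 TPM. Of the list 5 genes were higher and 2 lower, near the 33.7% and 16.7% of all, and 4 higher and 7 lower after median-of-ratios scaling. Among 20 genes of radial glia and neural stem cells 2 had gained peaks alone and neither passed the test with crotonate. Sox3, a transcription factor of neural progenitors, had 86.4 ± 8.04 and 76.9 ± 4.65 TPM (limma adjusted p = 0.0741), with adjusted p of 0.0426 without control 1, 0.0458 without crotonate 1 and 0.00321 after median-of-ratios scaling. With MS-275 it had 99.1 ± 7.18 TPM (limma adjusted p = 0.0260), a call that ended without any of control 1, 2 or 3 or MS-275 2, 3 or 4 (adjusted p 0.0510 to 0.0797) and after median-of-ratios scaling (0.229). Id4, an inhibitor of basic helix-loop-helix factors, had 2 gained peaks and 1.74 ± 0.139 and 2.17 ± 0.156 TPM (limma adjusted p = 0.113). The log2 difference of Id4, 0.21, was -0.22 after quantile normalization, and without the trend its adjusted p was 0.0178.

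Of 21 tested genes of the list of interferon response and MHC class I, 16 were higher, beside 33.7% of all genes, with a median log2 fold change of 1.05. The 4 with gained peaks alone were all higher, beside 64.2% of all such genes. Gbp3, described above and not in the list, fell. H2-D1, an MHC class I molecule whose reads can be shared with related genes, had 20.6, 21.3, 19.8 and 23.0 TPM in the control, 46.8, 54.0, 55.6 and 50.4 with crotonate and 54.1, 56.7, 59.5 and 56.1 with MS-275. Bst2, a membrane protein that tethers budding viruses, rose from 10.1 ± 3.27 to 60.5 ± 5.38 TPM and to 96.2 ± 7.24 TPM with MS-275. Its gained peak of 262 bp, 219 bp from the start, lay under no other list. Outside the naming rule Psmb8, an immunoproteasome subunit, rose from 3.38 to 12.7 TPM and Tap1, a peptide transporter, from 7.02 to 13.7 TPM.

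Among genes of acyl-CoA metabolism Hadh and Ehhadh, both dehydrogenases of fatty acid oxidation, had gained peaks alone and rose. Of the 16 tested genes of that list 7 were higher and 5 lower, beside 33.7% and 16.7% of all. The median log2 fold change of the list was -0.01, and 6 were higher and 8 lower after median-of-ratios scaling. Hadh, whose promoter is shown above, had 71.1, 67.2, 70.6 and 66.1 TPM in the control, 101, 99.5, 100 and 92.2 with crotonate and 122, 115, 117 and 117 with MS-275, in 3 levels without overlap. Ehhadh rose from 1.00 ± 0.126 to 2.10 ± 0.215 TPM (limma adjusted p = 8.2e-04, and 0.118 after quantile normalization). In the list of fatty acid oxidation and PPAR targets Ucp2 and Plin2 rose. Plin2, a coat protein of lipid droplets, had 19.1 ± 1.38 and 26.4 ± 2.44 TPM. Pparg, outside the naming rule, had 1.10 and 0.969 TPM without a call. Of the 18 tested genes of this list with a position 9 were higher and 2 lower, beside 33.7% and 16.7% of all. Over its 19 tested genes 10 were higher and 2 lower. After median-of-ratios scaling 6 were higher and 3 lower, beside 24.6% and 29.9% of all. Of 21 tested genes of the imprinted list 15 were higher and 0 lower, beside 33.7% and 16.7% of all, with a median log2 fold change of 0.59. Dlk1, a transmembrane relative of Notch ligands, was its only gene with a gained peak alone. It had 6.31, 4.30, 6.23 and 3.85 TPM in the control, 22.7, 15, 17.9 and 13.3 with crotonate and 9.61, 5.84, 8.21 and 4.77 with MS-275. Crotonate libraries stood above the other 2 groups, which overlapped (MS-275 against control, limma adjusted p = 0.143, 0.00142 with the replicate block and 0.0467 without MS-275 4). In the authors' deposited table for explants Dlk1 was lower with crotonate (log2 fold change -0.69, adjusted p 2.1e-35). So were, in that table, Hadh (-0.29), Id4 (-0.20), Shb (-0.17), Ly6h (-0.12) and Celf4 (-0.08) of the named genes. For Dlk1 the difference from the NSPCs was not tested.

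Gadd45b, a stress-induced growth arrest gene, had 2 gained peaks and 4.26, 2.66, 2.13 and 3.26 TPM in the control, 1.65, 1.73, 1.19 and 2.25 with crotonate and 4.25, 5.80, 4.45 and 3.99 with MS-275. It fell with crotonate (limma adjusted p = 0.0146), with 1 library of crotonate above the lowest control. Its rise with MS-275 (limma adjusted p = 0.0272) ended without control 2 or 3 or MS-275 2 (adjusted p 0.0667, 0.0861 and 0.0847) and after median-of-ratios scaling (0.0543). Naa10, the catalytic subunit of the main N-terminal acetyltransferase, had 125 ± 3.40 and 117 ± 3.66 TPM with crotonate (limma adjusted p = 0.0613, 0.0371 without crotonate 2 and 7.0e-04 after median-of-ratios scaling) and fell to 71.5 ± 3.08 TPM with MS-275. Kdr, a receptor of vascular endothelial growth factor and the one endothelial marker with a gained peak alone, had 0.532 ± 0.185 and 2.03 ± 0.336 TPM. It was the 1 endothelial marker of 7 that passed the filter, and only with its treated libraries, since all 4 controls were under 1 TPM. Over the 18 lists without the marker lists, 26 genes had gained peaks alone, of which 19 were higher and 1 lower. Of all genes with gained peaks alone, 64.2% were higher and 4.81% lower.

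In 6 of the 18 lists other than the marker lists no gene had gained peaks alone, beside 8.38% of all tested genes. Of 28 G2 and M phase genes 27 were lower, of 26 G1 and S phase genes 23 and of 21 cholesterol genes 18, beside 16.7% of all. The others were the lists of deacetylases, of acyl readers and of proneural factors. Of 18 deacetylases 8 were higher and 4 lower, and of 19 acyl readers 0 and 9. Of 11 tested proneural factors 4 were higher and 2 lower, beside 33.7% and 16.7% of all. Gained peaks beside control peaks were found at 2518 of all 13887 tested genes. In the 6 lists they were found at Nuf2 of the G2 and M list, at Stard4 of the cholesterol list and at no proneural factor. They were also at 5 genes of the G1 and S list (Ccnd2, Ccne1, Cdk2, Cdk6 and Mcm7), at 6 acyl readers and at 4 deacetylases.

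The 5 genes with most gained peaks also had control Kac peaks. Cdh4, a cadherin of the retina and brain, had 8, and C530044C16Rik, Celf4, Lsamp and Npas3 had 7 each. Celf4, an RNA-binding protein of neurons, had 2.38, 2.53, 3.36 and 3.30 TPM in the control, 17.3, 17.1, 16.2 and 14.6 with crotonate and 17.5, 17.8, 17.3 and 14.3 with MS-275, so both treatments stood apart from the control. Lsamp, an adhesion protein of limbic neurons, had 33.3 ± 2.79 TPM in the control, 53.3 ± 3.05 with crotonate and 36.4 ± 1.70 with MS-275, and the treated groups differed (limma adjusted p = 2.8e-05). Its difference between MS-275 and control had an adjusted p of 0.0957, of 0.0477 without control 2 and of 0.0484 after quantile normalization. Cdh4 had 60.1, 52.8, 58.8 and 54.4 TPM in the control, 72.3, 63.0, 70.9 and 58.6 with crotonate and 36.9, 34.9, 37.6 and 37.5 with MS-275. Its rise with crotonate had an adjusted p of 0.0164, and of 0.0501 without control 2, 0.0508 without crotonate 1, 0.0521 without crotonate 3 and 0.291 after median-of-ratios scaling. Npas3, a transcription factor of the basic helix-loop-helix PAS family, had 34.2 ± 1.81 and 38.3 ± 5.63 TPM, and C530044C16Rik 3.67 ± 0.748 and 3.87 ± 0.486 TPM, both without a call. The log2 difference of C530044C16Rik with crotonate, 0.07, was -0.01 without control 4 and that of Npas3 with MS-275, 0.03, was -0.00 without control 2.

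At the widest gained peaks RNA differed from gene to gene. Matk rose from 3.09 ± 0.351 to 15.4 ± 1.02 TPM with crotonate and to 16.9 ± 1.58 TPM with MS-275. Pcdh7 rose from 12.3 ± 1.15 to 16.0 ± 1.23 TPM, and Galnt16, an enzyme that starts O-linked sugar chains, from 12.7 ± 0.902 to 18.6 ± 0.894 TPM. Erich3 rose from 1.71 ± 0.491 to 3.76 ± 1.32 TPM with crotonate (limma adjusted p = 0.00896). Pcdh7, Galnt16 and Erich3 also had control Kac peaks inside or within 1 kb. Fhdc1, at 1.09 to 1.39 TPM in control and 1.04 to 3.81 TPM in crotonate libraries, and Lor, at 2.78 ± 0.655 and 3.46 ± 1.68 TPM, were not called (limma adjusted p = 0.120 and 0.603). Hs3st3a1 and Cntn6 were under the filter, with means of 0.353 and 0.605 TPM and of 0.613 and 0.840 TPM in control and crotonate.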

How the data were processed

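Peaks were called with Bowtie2 2.3.5.1 and MACS2 2.2.5 and RNA was quantified with Salmon 1.0.0 on GRCm38, per the submitters' processing notes. The authors deposited TPM values of 53974 genes for NSPCs and forebrain. NSPC peak lists hold positions only. Forebrain lists give, as deposited, a score, the fold enrichment as a ratio, and the −log10 p and q of the peak caller. The explant table gives the authors' mean normalized counts (a signal), log2 fold changes with SE, their quotient (a score), and p-values, made with DESeq2 1.26.0. Members, gene lists and tests were chosen with earlier results of these data known.

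Overlaps needed 1 bp and were counted with Python 3.11.15 and pandas 2.3.3. RefSeq positions of GRCm38.p6 were matched by symbol to 13887 of 14857 tested genes (93.5%). Peaks inside or within 1 kb of a gene were assigned to it. The test was limma 3.58.1 in R 4.3.3 on log2(TPM + 1) of genes that reached 1 TPM in 4 or more of the 12 libraries, in 1 fit of 3 groups with trend, two-sided, with Benjamini-Hochberg adjustment over all genes. On data simulated for crotonate against control, 28 of 67 genes changed 1.25-fold, 59 of 67 changed 2-fold, 66 of 66 changed 4-fold and 10 of 13791 unchanged genes were called. Figures used matplotlib 3.10.9.

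Replicate numbers pair the samples. With each group's mean subtracted, libraries sharing a number correlated at 0.119 to 0.241 (12 pairs), and those with other numbers at -0.197 to 0.0993 (36 pairs). The fit without this block is the main one.

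Named genes with gained and no control Kac peaks are, for each direction, the 12 called ones of greatest log2 difference with non-overlapping libraries and a mean of at least 5 TPM in the higher group, without predicted genes; 1 rising gene is not reported here. The 5 genes with most gained peaks and, per list, the 2 with the smallest adjusted p were added. Named peaks are the 10 widest, the 5 widest also under Kac MS-275 and Kcr crotonate, and the 3 on each side of the border. Alternatives were other scalings, filters, pseudocounts, peak borders, the replicate block and leaving out each library; genes at 1 TPM in all 4 controls and bins of expression were added after the data were seen. IgG, input and methylation libraries were not used here. The explants were used as the authors' table, and no paired fit was made for them.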

Additional observations from a re-analysis of the deposited data

Results flagged for a closer look

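In 8 of 141 groups of 4 libraries, 3 groups for each of 47 named genes, 1 library stood apart from the other 3 by more than Dixon's 95% limit of 0.829 for its gap over the whole range. Chance gives such a gap in about 1 of 20 groups.

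Crotonate 2 was high for H2-T-ps (13.4 TPM, others 9.43 to 9.83) and low for Cenpl (10.1, others 12.1 to 12.2). Crotonate 1 was high for Shmt2 (114, others 102 to 104), and crotonate 4 was low for Hadh (92.2, others 99.5 to 101). MS-275 1 was high for H2-T-ps (18.7, others at most 13.8), MS-275 3 low for C530044C16Rik (0.961, others 1.70 to 1.83) and MS-275 4 low for Celf4 (14.3, others 17.3 to 17.8). Control 2 was low for Nfil3 (7.61, others 8.62 to 8.82). None of these libraries, left out, ended the calls with crotonate of H2-T-ps, Cenpl, Shmt2, Hadh or Nfil3, or that of Celf4 and C530044C16Rik with MS-275.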

How the results depend on the processing

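The count of gained peaks depends on the border of the rule. It was 9242 when a peak counted as kept only from 50% covered by control peaks, 5005 with control peaks widened by 500 bp, 4423 with 1 kb, and 2390 among peaks of at least the median width. When the other list had to cover 50% of a gained peak, shares were 8.18% for Kac MS-275, 11.8% for Kcr control, 33.2% for Kcr crotonate, 5.98% for Kcr MS-275, 42.6% for H3K9ac and 22.2% for H3K9cr. Among peaks of at least the median width they were 19.2%, 21.0%, 59.2%, 14.1%, 55.1% and 29.9%. Over 1 kb from a control peak, Kcr control covered 11.1%, H3K9ac 41.3% and H3K9cr 19.7%.

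Quantile normalization gave 495 higher and 126 lower gained-only genes with crotonate and 189 lower with MS-275, and 3091 higher and 3685 lower of all genes tested (4796 and 2356 in the fit reported). Median-of-ratios scaling gave 108 lower gained-only genes and 4214 lower of all. Leaving out 1 library at a time gave 710 to 743 higher and 49 to 57 lower gained-only genes. With the replicate block, which uses the pairing, 753 were higher and 60 lower. Over the 47 named genes and 3 comparisons it added calls for Dlk1 with MS-275 and for Kcnt1 between the treated groups, ended that of Id4 between the treated groups (adjusted p 0.0458 and 0.0644), and changed no other call.

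Signs of log2 differences turned for 7 genes in 1 comparison each. With MS-275 these were Sfrp2 (-0.07 with median-of-ratios scaling, -0.14 with quantile normalization, and -0.02 to 0.09 without 1 library), Npas3 (-0.06 with median-of-ratios scaling, -0.00 to 0.06 without 1 library), and with quantile normalization Shb (-0.23), Gadd45b (-0.01) and Dlk1 (-0.02). With crotonate they were C530044C16Rik (-0.04 with median-of-ratios scaling, -0.37 with quantile normalization, -0.01 to 0.16 without 1 library) and Id4 (-0.22 with quantile normalization). The cause was not tested. Read depth is unknown, and each peak list is 1 library, which limits every share of peaks.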

Other observations

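Some windows of 50 kb held several gained peaks, and whether this goes beyond the local density of Kac peaks was not tested. Of all windows of 50 kb with a gained peak, 4183 held 1 and 8 held 6 or more. The window chr6:50750001-50800000, which C530044C16Rik overlaps, held 11 gained beside 10 control Kac peaks. A window on chromosome 11 (75150001 to 75200000) with Hic1, a transcriptional repressor, and Rtn4rl1, a relative of the Nogo receptor, held 7 gained and 1 control peak. The window of Sfrp2 held 7 gained and no control peak. These windows were chosen after their counts were seen. Hic1 went from 2.3 ± 0.136 to 4.02 ± 0.694 TPM with crotonate (limma adjusted p = 9.6e-04) and Rtn4rl1 from 7.88 ± 0.927 to 12.6 ± 1.02 TPM (limma adjusted p = 9.3e-05), while Ovca2, between them, had 16.5 ± 2.87 and 16.0 ± 1.31 TPM (limma adjusted p = 0.835).

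Chromosome X held 43 gained (0.584%), 56 kept (0.393%) and 190 lost Kac peaks (2.08%).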
